A study of Mus musculus with 16 samples.

Results

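Pf4, Gp1bb, Tubb1 and Vwf are genes of megakaryocytes, the bone marrow and fetal liver cells that shed platelets. The 4 genes were chosen by name, and their rows were read from the deposited expression tables, which list 2247 genes in all, and from the lists of peaks annotated with their nearest gene. The study set the Nan mutant of the erythroid transcription factor KLF1, which carries a changed DNA-binding zinc finger, beside normal KLF1. Polyadenylated RNA was sequenced from 3 Nan/+ and 3 wild-type (+/+) mouse fetal livers at embryonic day 14.5, from whole dissociated livers after globin RNA had been removed. Newly made RNA, labelled for 1 h with 500 uM 4-thiouridine (4sU), was sequenced from 2 libraries each of K1-NanER, K1-ER and parental K1 cells. K1 is an erythroblast line that lacks KLF1. K1-NanER and K1-ER carry fusions of Nan-KLF1 or KLF1 with the oestrogen receptor (ER), and their libraries came from a different clone each. For the 4sU libraries all 3 lines received 200 nM 4-hydroxytamoxifen per the labels, which activates the fusions, though the header of the K1 column does not name it. The same antibody against KLF1 was used for chromatin immunoprecipitation (ChIP-seq) in K1-NanER and K1-ER cells, but not in K1, after 3 h in the same 200 nM of the drug, with 1 ChIP library and 1 input library per factor, made from pooled replicates. The labels do not say whether the livers came from separate litters or the K1 libraries from separate cultures.

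Erythrocytes and megakaryocytes arise from a shared precursor. In mouse and human cells KLF1 favours the erythroid fate, and the ETS factor FLI1 favours the megakaryocytic one. Megakaryocytes pack adhesive proteins and chemokines into granules, build the receptors by which platelets hold to the vessel wall, and extend long microtubule-filled processes from which platelets are released. Pf4 encodes platelet factor 4, a CXC chemokine of the alpha granules, and Vwf encodes von Willebrand factor, an adhesive protein of the same granules that endothelial cells also make. Gp1bb encodes a subunit of the platelet receptor that binds von Willebrand factor, and Tubb1 encodes beta-1 tubulin, the main beta tubulin of the platelet's marginal microtubule band.

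The liver comparison addressed the effect of a single Nan allele on RNA levels in the fetal liver. Nan/+ livers held more RNA of the granule chemokine Pf4 and of the receptor subunit Gp1bb than wild-type livers, and less RNA of the tubulin Tubb1. Pf4 (chromosome 5, 91201461 to 91202409, build mm9) was at 621.59 FPKM in Nan/+ and 245.09 FPKM in wild type by the authors' deposited table. FPKM are fragments per kilobase of transcript, scaled to the sequenced fragments of a library, a level that can be set side by side between genes. Gp1bb (chromosome 16, 18620412 to 18630031) was at 13.74 FPKM in Nan/+ and 5.36 FPKM in wild type by the authors' deposited table. Tubb1 (chromosome 2, 174276096 to 174283881) was at 22.51 FPKM in Nan/+ and 55.24 FPKM in wild type by the authors' deposited table. The table gives 1 value per group, so neither a spread between livers nor an overlap of the groups can be shown. Vwf has no row in the liver table used here and was not analysed in liver.

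**Figure D1:**
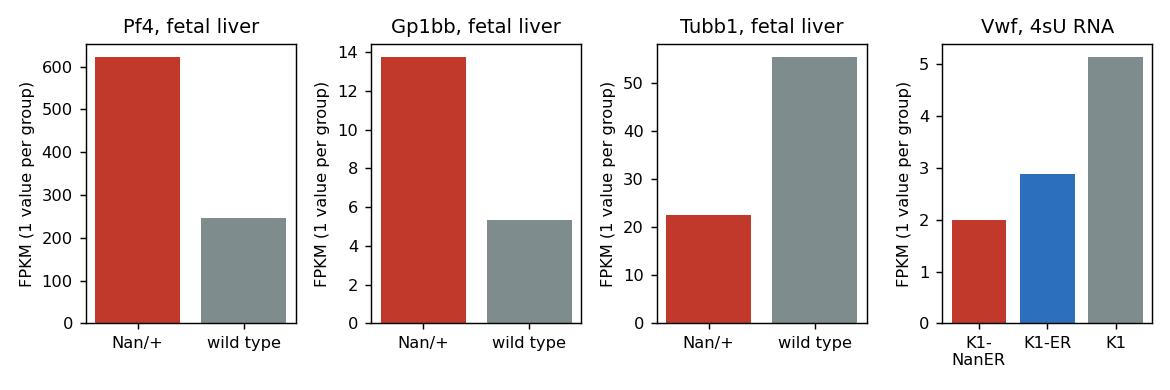
Level of each gene in FPKM, 1 bar per group as deposited, with no error bars because the tables hold no replicate values. Pf4 and Gp1bb stood higher in Nan/+ than in wild-type liver, Tubb1 stood lower, and Vwf in 4sU RNA was at 1.99 FPKM (K1-NanER), 2.88 FPKM (K1-ER) and 5.13 FPKM (K1).

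The sizes of the 3 liver differences lay close together although their directions differed. The log2 fold change of Nan/+ over wild type was 1.34 for Pf4 (q = 0.0362), 1.36 for Gp1bb (q = 0.0292) and -1.29 for Tubb1 (q = 0.00447) by the authors' deposited table, where q is the authors' p-value after their correction for multiple tests. As ratios of the group levels, Pf4 was 2.54-fold and Gp1bb 2.56-fold higher in Nan/+ livers, while Tubb1 was 2.45-fold lower. The liver table holds 793 genes, and each of them met a q threshold of 0.05 and at least a 1-unit difference on the log2 scale in either direction. Since 100% of its rows are called, the presence of the 3 genes in it is the authors' call itself. By direction, 75.4% of the table's genes rose and 24.6% fell, beside 2 and 1 of the 3 genes here. Among 598 genes that rose, the fold changes of Gp1bb and Pf4 held ranks 308 and 317, near the median log2 rise of 1.37 by the authors' deposited table. Among 195 genes that fell, Tubb1 held rank 108, with a median log2 fold change of -1.32 by the authors' deposited table.

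The 3 genes differ in how far their q lay inside the threshold. For Tubb1, 482 genes of the table had a higher q and 284 a lower one. At a q of at most 0.01, which 47.5% of the table met, Tubb1 was called and Gp1bb and Pf4 were not. For Gp1bb 187 genes and for Pf4 120 genes had a higher q. Pf4 is one of the most abundant transcripts of the table, at rank 16 of 793 in Nan/+ and rank 13 in wild type by FPKM. Tubb1 held rank 357 in Nan/+ and rank 124 in wild type, and Gp1bb rank 435 in Nan/+ and rank 483 in wild type. From high to low the order of levels was thus Pf4, Tubb1 and Gp1bb in Nan/+ livers, and it was the same in wild-type livers. With no replicate values, whether neighbours in that order differ beyond the spread between livers was not tested.

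**Figure D2:**
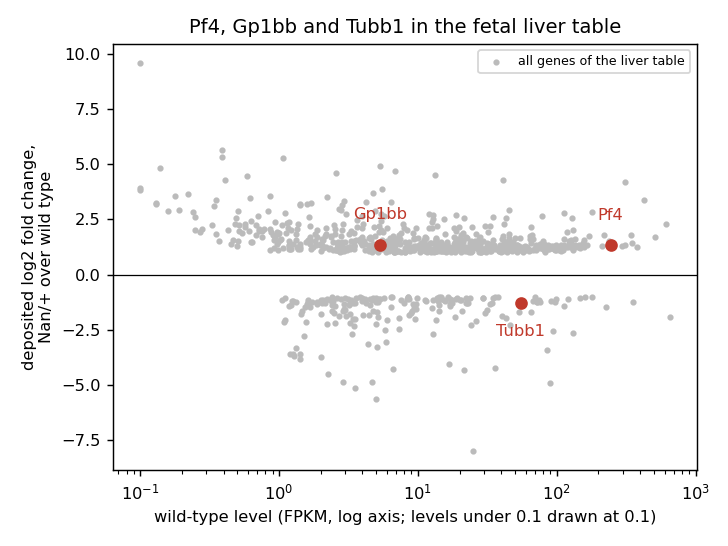
Each grey point is a gene of the authors' deposited liver table, by its wild-type level in FPKM (log axis) and its log2 fold change of Nan/+ over wild type. Pf4, at 245.09 FPKM in wild type, and Gp1bb, at 5.36 FPKM, lie at nearly the same fold change, and Tubb1 lies below the line at -1.29; the empty band between -1 and 1 is the authors' fold threshold.

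The value of Gp1bb may hold RNA of a second gene. The locus that the table gives for Gp1bb spans 9620 bp, while the RefSeq gene (assembly GRCm38.p6) is 2085 bp long. In RefSeq Gp1bb overlaps Septin5, a septin gene whose older symbol is Sept5, and the 2 genes together also span 9620 bp. Whether fragments of Septin5 entered the deposited value cannot be told from the locus alone, since how fragments were assigned to genes is not given. For Pf4, Tubb1 and Vwf the locus length equals the RefSeq length, at 949, 7786 and 133732 bp, and no RefSeq gene overlaps them.

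The promoters of the 3 liver genes are shown because KLF1 is known to bind CACCC elements, and because 2 of the genes rose while 1 fell. RefSeq's promoter table (build GRCm38.p6) gave a window for 3 of the 4 genes; the 250 bases before the start site are printed 5′ to 3′ on the gene's strand, with CACCC and the ETS core AGGAAG, on either strand, in capitals. The windows are chr5:90772185-90772434 on the plus strand for Pf4, chr16:18622404-18622653 on the minus strand for Gp1bb and chr2:174450345-174450594 on the plus strand for Tubb1.
Pf4: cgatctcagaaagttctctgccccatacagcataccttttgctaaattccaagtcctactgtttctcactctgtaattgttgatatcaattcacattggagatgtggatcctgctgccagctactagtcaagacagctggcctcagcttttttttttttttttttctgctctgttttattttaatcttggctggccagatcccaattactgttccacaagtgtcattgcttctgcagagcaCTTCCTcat
Gp1bb: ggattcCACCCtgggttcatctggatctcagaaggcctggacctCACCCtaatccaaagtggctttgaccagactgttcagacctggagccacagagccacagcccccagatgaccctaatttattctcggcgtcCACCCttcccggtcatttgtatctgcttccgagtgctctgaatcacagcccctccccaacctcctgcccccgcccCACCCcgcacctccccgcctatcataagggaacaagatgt
Tubb1: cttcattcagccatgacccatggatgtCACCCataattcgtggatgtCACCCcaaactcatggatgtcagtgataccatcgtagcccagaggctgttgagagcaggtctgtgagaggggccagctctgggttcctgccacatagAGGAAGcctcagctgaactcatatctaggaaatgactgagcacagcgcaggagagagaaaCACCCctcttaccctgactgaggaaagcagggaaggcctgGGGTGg

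The 3 windows differ in these letters. In the RefSeq windows of 300 bases, which add the first 50 bases of the gene, CACCC was found 6 times for Tubb1, 4 times for Gp1bb and 0 times for Pf4, on both strands. Of 32851 such windows in the table, 57.5% hold at least 1 CACCC. The longer motif CCNCNCCC, in which N is any base, was found 4 times for Gp1bb, 1 time for Tubb1 and 0 times for Pf4, and 49.5% of windows hold it. Its looser form CCNNNCCC, which includes every match of CCNCNCCC, was found 9 times for Gp1bb, 2 times for Tubb1 and 0 times for Pf4, and 70.6% of windows hold it. A CACCC can lie within either of these, as it does at position -43 of Gp1bb, where the bases are CCCCACCC. Matches of 1 motif can also overlap, as those of CCNNNCCC do at positions -48 and -47 of Gp1bb. Such matches are thus not all separate sites. Each share counts windows with at least 1 match, and how often a window holds several was not examined. The GATA motif AGATAA was found once, 37 bases into Pf4, and 11.2% of windows hold it. AGGAAG was found 1 time in each of the 3 windows, and 35.4% of windows hold it. For Gp1bb that match lies 21 bases past the start site and so outside the printed bases.

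The lists of peaks asked where the factors bind in K1-NanER and K1-ER cells. Neither list names any of the 4 genes as the nearest gene of a peak, among 2758 peaks of Nan-KLF1 and 5326 peaks of KLF1. The authors assigned a gene only within 300 kb, and 196 Nan-KLF1 and 225 KLF1 peaks have none. Each factor has 1 pooled library, so these lists have no replicate check. Measured from the summit of a peak to the edge of the gene's locus, 3 Nan-KLF1 and 5 KLF1 peaks lay within 100 kb of 1 of the 4 genes, and these were assigned to other genes.

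The distances differed from gene to gene. Nearest to Tubb1 was a KLF1 peak 11.5 kb from the locus (chr2:174263986-174264805, mm9), in the promoter of the protease gene Ctsz, with the central motif CCCCGCCC. Its fold enrichment of ChIP over input was 44.39 in the authors' list, against a median of 75.63 over all KLF1 peaks. A further pair of peaks lay 40.2 kb (Nan-KLF1) and 40.3 kb (KLF1) from Tubb1, assigned to Nelfcd, with central motifs CCCAGCCC and CCCAACCC. They shared 382 bp, and the authors' own intersection of the lists does not hold them. At Vwf the nearest Nan-KLF1 peak lay 79.4 kb away and the nearest KLF1 peaks 58.1 and 79.6 kb away, all assigned to Cd9, the gene of a tetraspanin of platelets and many other cells. At Pf4 the nearest Nan-KLF1 peak lay 1731 kb away and the nearest KLF1 peak 418.7 kb away.

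The peaks nearest to Gp1bb were the same place in both lists. The Nan-KLF1 peak (chr16:18686896-18687382, mm9) had a fold enrichment of 107.23 and the KLF1 peak (chr16:18686575-18687424) one of 41.93 in the authors' lists, with summits 2 bp apart and 57.1 kb from the locus. Over all peaks the median fold enrichment was 107.23 for Nan-KLF1 and 75.63 for KLF1. The Nan-KLF1 peak thus lay at the median of its list and the KLF1 peak below that of its own. Whether the factors differ in binding at this place was not tested. Both peaks are intergenic, without a central motif, and in the authors' intersection of 761 peaks. Their gene field holds 38596 in place of a symbol, which as a spreadsheet date is 1 September 2005, the form into which the symbol Sept5 is converted. That reading was made after the values were seen. If it is right, the gene assigned to both peaks is the one that overlaps Gp1bb.

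**Figure D3:**
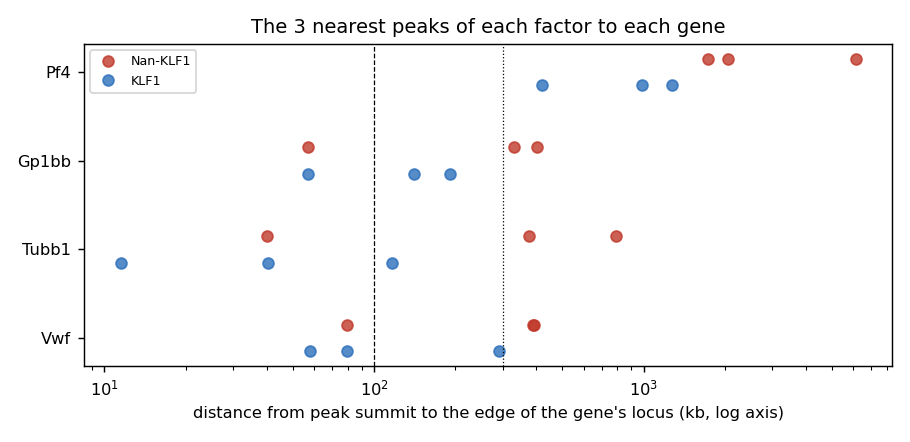
Distance in kb (log axis) from the summits of the 3 nearest peaks of each factor to the edge of each gene's locus; the dashed line marks 100 kb and the dotted line the authors' limit of 300 kb. Tubb1, Gp1bb and Vwf have peaks of both factors within 100 kb, and the nearest peak to Pf4 lies at 418.7 kb.

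The 4sU comparisons addressed which newly made RNAs differ from K1 once a fusion is active. Vwf is the only 1 of the 4 genes with a row in the 4sU table, which lists 1556 genes, each called in at least 1 of its comparisons. Vwf (chromosome 6, 125502966 to 125636697, mm9) was at 1.99 FPKM (K1-NanER), 2.88 FPKM (K1-ER) and 5.13 FPKM (K1) by the authors' deposited table. Against K1 it fell in K1-NanER, at -1.37 on the log2 scale (q = 0.0137), by the authors' deposited table. In K1-ER the log2 fold change was -0.83 and did not pass (p = 0.0239, q = 0.186) by the authors' deposited table. Of the table's genes 75.7% were called in K1-NanER, 28.3% as falling, and 49.4% in K1-ER, 11.5% as falling. At a q of at most 0.01, met by 41% of the table in K1-NanER and 29.7% in K1-ER, Vwf was called in neither. Among 441 genes that fell in K1-NanER, Vwf held rank 240 by size of change.

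Vwf was at a low level in all 3 lines. By FPKM it held rank 1442 of 1556 in K1-NanER, rank 1416 in K1-ER and rank 1107 in K1. Both comparisons use the same K1 libraries. K1-NanER stood at a log2 difference of -0.54 from K1-ER, which was not tested, and since clones were set against parental cells, clonal variation cannot be told apart from the fusion's effect. Esr1, whose ligand-binding domain the fusions carry, was at 70.3 FPKM (K1-NanER), 136 FPKM (K1-ER) and 2.41 FPKM (K1) by the authors' deposited table. The part of this difference between the lines in the result was not tested. Of 26 endothelial markers only Ptprb, a receptor phosphatase of vessels, has a row; it was at 1.31 FPKM (K1-NanER), 2.46 FPKM (K1-ER) and 4.28 FPKM (K1) by the authors' deposited table. The order of the lines was the same for Ptprb and Vwf. Some genes that are not endothelial markers, such as Tuba4a and Lpar5, also show that order. A link between Ptprb and Vwf was not tested.

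A wider list of 109 genes of megakaryocytes and platelets was read in the same tables, with 20 genes of granules, 25 surface receptors, 17 of the cytoskeleton, 22 transcription factors and 25 of signalling and enzymes. Several are shared with other blood cells, the transcription factors above all. In liver 9 of the 109 have a row: 6 rose and 3 fell, beside 75.4% and 24.6% of the table. Their median log2 fold change was 1.254 beside 1.245 over the whole table, by the authors' deposited table. That table holds called genes alone, so the share called among all tested genes is not known. The other 100 have no row, which says nothing of their levels. None of 25 surface receptors other than Gp1bb and Fcer1g has a row in the liver table, so the levels of Gp1ba, Gp9 and Gp5, the partner subunits of Gp1bb, are not known here.

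The other 6 called genes of the list in liver are found in several cell types. Alox5ap, which hands arachidonic acid to the leukotriene pathway, was at 32.06 FPKM in Nan/+ and 11.17 FPKM in wild type by the authors' deposited table. Srgn, the proteoglycan core of secretory granules, was at 98.87 FPKM in Nan/+ and 39.35 FPKM in wild type by the authors' deposited table. Fcer1g, the signalling chain that platelets pair with the collagen receptor and mast cells with the IgE receptor, was at 60.96 FPKM in Nan/+ and 25.57 FPKM in wild type by the authors' deposited table. Gata2, a transcription factor of progenitors, megakaryocytes and mast cells, was at 7.52 FPKM in Nan/+ and 3.19 FPKM in wild type by the authors' deposited table. All 4 rose, with q values between 0.00244 and 0.00763. Those that fell beside Tubb1 were Unc13d, which primes granules for release, and Lmo2, an adaptor in complexes of TAL1 and GATA factors. Unc13d was at 7.01 FPKM in Nan/+ and 15.83 FPKM in wild type (q = 0.00244) by the authors' deposited table. Lmo2 was at 89.91 FPKM in Nan/+ and 180.85 FPKM in wild type by the authors' deposited table. Its log2 fold change of -1.01 and q of 0.0438 lay near the authors' thresholds.

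Markers of other cell types also have rows in the liver table, of whose genes 75.4% rose and 24.6% fell. Each listed marker is there because it was called. The sums below thus hold called genes alone and leave the other markers out, so they do not give the level of a cell type. Of 16 granulocyte markers 12 rose and none fell, and the summed level of those with a row, here and for the next lists, was 2871 FPKM in Nan/+ and 489 FPKM in wild type. Of 16 markers of mast cells, basophils and eosinophils, which share Srgn with the platelet list, 8 rose and 1 fell, with sums of 288 FPKM in Nan/+ and 97.5 FPKM in wild type. Of 18 macrophage markers 6 rose and none fell, with sums of 396 FPKM in Nan/+ and 164 FPKM in wild type. Of 28 erythroid markers 1 rose and 4 fell, with sums of 359 FPKM in Nan/+ and 945 FPKM in wild type. Slc25a37 alone made up 170.5 FPKM of that Nan/+ sum and 655.33 FPKM of that wild-type sum. Of 26 endothelial markers only Icam2 has a row, at 20.29 FPKM in Nan/+ and 9.27 FPKM in wild type by the authors' deposited table. Of 16 muscle markers 8 fell, with sums of 2.64 FPKM in Nan/+ and 48.4 FPKM in wild type. None of these listed markers was at 0 in either group, and none of 22 hepatocyte markers has a row. In whole liver fewer cells of a type and less RNA per cell cannot be told apart, and the part of these cell types in the values of Pf4, Gp1bb and Tubb1 was not tested. Xist, the X-silencing RNA that female cells make, was at 0.04 FPKM in Nan/+ and 25.14 FPKM in wild type by the authors' deposited table. The labels give no sex for the livers, and with 1 value per group the sex of the embryos and the Nan allele cannot be told apart for Pf4, Gp1bb and Tubb1.

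In 4sU RNA 11 of the 109 genes have a row. Against K1, 5 rose and 2 fell in K1-NanER, beside 47.4% and 28.3% of the table, with a median of 1.17 over the 7 called genes beside 1.25 over all called genes. In K1-ER 7 rose and none fell, beside 37.9% and 11.5% of the table, with a median of 1.84 beside 1.56. The 2 that fell in K1-NanER were Vwf and the alpha tubulin gene Tuba4a, at 37.7 FPKM (K1-NanER), 71.0 FPKM (K1-ER) and 88.2 FPKM (K1) by the authors' deposited table. None of the 25 surface receptors has a row, nor have Pf4, Gp1bb and Tubb1.

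The genes of the list that passed in both lines were of the cytoskeleton and of transcription. Nfe2, which drives late megakaryocyte genes such as Tubb1 in mice and binds globin enhancers in red cells, was at 30.5 FPKM (K1-NanER), 148 FPKM (K1-ER) and 8.07 FPKM (K1) by the authors' deposited table. Flna, the filamin that ties the receptor of von Willebrand factor to actin, was at 5.19 FPKM (K1-NanER), 10.1 FPKM (K1-ER) and 1.72 FPKM (K1) by the authors' deposited table. Myh9, the non-muscle myosin of platelets, was at 52.5 FPKM (K1-NanER), 52.0 FPKM (K1-ER) and 25.1 FPKM (K1) by the authors' deposited table.

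Other genes of the list passed in 1 line, which does not show that the lines differ. In K1-NanER these were the kinase gene Jak2, at 26.5 FPKM (K1-NanER), 6.23 FPKM (K1-ER) and 3.05 FPKM (K1), and the adhesion gene Vcl, at 39.7 FPKM (K1-NanER), 22.7 FPKM (K1-ER) and 17.7 FPKM (K1), by the authors' deposited table. In K1-ER they were Mafk, the small Maf partner of NFE2, at 117 FPKM (K1-NanER), 423 FPKM (K1-ER) and 118 FPKM (K1) by the authors' deposited table. With it passed Tgfb1, a growth factor stored in alpha granules, at 31.6 FPKM (K1-NanER), 125 FPKM (K1-ER) and 24.4 FPKM (K1) by the authors' deposited table. Sh2b3, a brake on thrombopoietin signalling, was at 65.0 FPKM (K1-NanER), 86.5 FPKM (K1-ER) and 35.2 FPKM (K1) by the authors' deposited table. Nbeal2, needed to form alpha granules, was at 24.7 FPKM (K1-NanER), 27.0 FPKM (K1-ER) and 14.1 FPKM (K1) by the authors' deposited table, and its q of 0.0498 in K1-ER lay at the threshold.

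**Figure D4:**
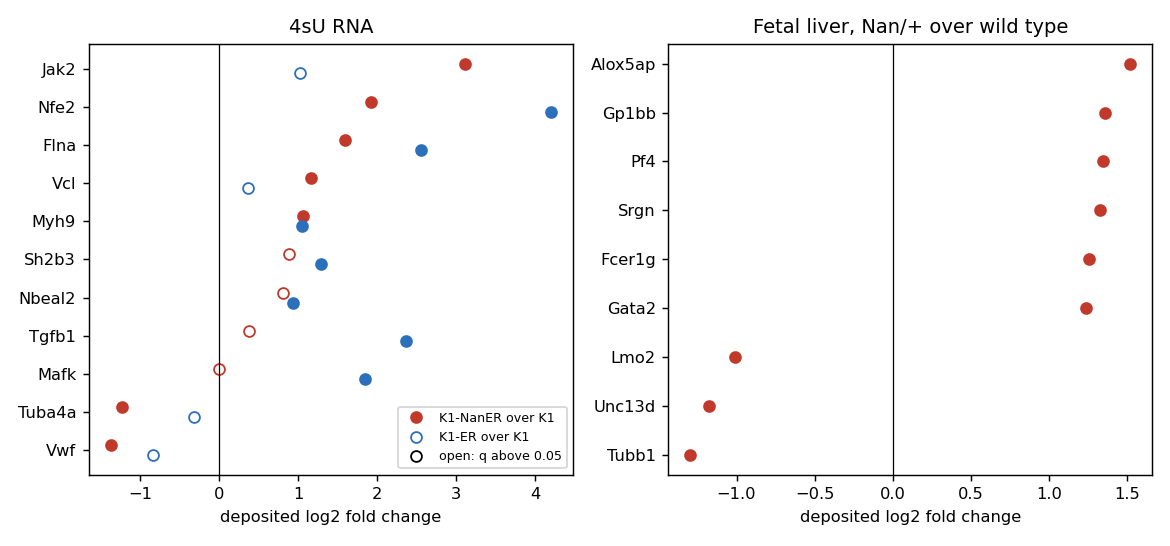
Deposited log2 fold change of each listed gene of megakaryocytes and platelets, on the left for K1-NanER over K1 (red) and K1-ER over K1 (blue), with open circles where q was above 0.05, and on the right for Nan/+ over wild-type liver. Vwf and Tuba4a lie left of 0 in both lines, with filled circles in K1-NanER only, and Tubb1, Unc13d and Lmo2 lie left of 0 in liver.

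Although no peak names Pf4, Gp1bb, Tubb1 or Vwf, peaks were assigned to other genes of the list. In all, 22 of the 109 genes (20.2%) had 33 Nan-KLF1 peaks, and 9.05% of 21900 protein-coding RefSeq genes had such a peak. For KLF1, 26 of the 109 (23.9%) had 47 peaks, beside 16.1% of the protein-coding genes. These shares were not tested. Peaks of both factors were assigned to 13 genes of the list, which is 59.1% of those with a Nan-KLF1 peak and 50% of those with a KLF1 peak, beside 61.1% and 34.4% over the protein-coding genes. Of the 22 transcription factors 6 (27.3%) had 17 Nan-KLF1 peaks and 9 (40.9%) had 21 KLF1 peaks. Zfpm1, which encodes the GATA1 partner FOG1, and Lyl1, which encodes a relative of TAL1, together held 11 of those 17 and 9 of those 21 peaks; this pair was chosen after the values were seen. The promoter of Gata1, which is required in both lineages, had a Nan-KLF1 peak with a fold enrichment of 302.18 and a KLF1 peak with one of 726.45, both with the central motif CCACTCCC, in the authors' lists. Gp9, whose product joins that of Gp1bb in the receptor, was assigned a distal Nan-KLF1 peak with a fold enrichment of 87.73. A KLF1 peak in its UTR had one of 180.86. The central motifs of these 2 peaks were CCCTTCCC and CCCCGCCC. Over all peaks the median fold enrichment was 107.23 for Nan-KLF1 and 75.63 for KLF1. Whether the factors differ in binding at Gata1 or Gp9 was not tested. Of the 7 genes called in K1-NanER 2 had a Nan-KLF1 peak, beside 24.4% of all genes called there, and of the 7 called in K1-ER 6 had a KLF1 peak, beside 58.7%. Of the 9 called in liver 3 had a Nan-KLF1 peak and 2 a KLF1 peak, beside 15.5% and 25.0%.

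The genes most like each member in level were found by Euclidean distance over log2 FPKM, across the 2 groups of liver or the 3 lines of the 4sU table, among the listed genes alone. For Pf4 they were Shfm1 (distance 0.0421), Uqcr10 (0.145) and Apoc2 (0.331). For Gp1bb they were Sap30l (0.0394), Mtif3 (0.0914) and Smlr1 (0.103). For Tubb1 they were Lpcat1 (0.0689), Tspo2 (0.301) and Bsdc1 (0.449), of which Tspo2 is an erythroid marker, at 19.9 FPKM in Nan/+ and 65.39 FPKM in wild type by the authors' deposited table. For Vwf they were Napepld (0.243), Frmpd1 (0.423) and Pgbd1 (0.513). Over so few groups these distances describe nearness in level and no more.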

How the data were processed

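The authors' deposited tables were used as they stand: FPKM per group, log2 fold change, and p-values and q values of the authors' own comparisons, per the file headers. Peak lists give the authors' fold enrichment (a ratio of ChIP over input) and a rank score, per the file headers. Build mm9, MACS 1.4.2 and TopHat2 2.0.10 are named in the submitters' processing notes, and the program that gave FPKM and q is not given in the sources used here. The depth per sample is unknown, because the tables hold no counts. With 1 value per group, nothing could be fitted. A call is the authors' q of at most 0.05. For likeness, levels were raised to 0.1 FPKM where lower. The printed start of a gene is the table's plus 1, since end minus start equals the RefSeq length for Pf4, Tubb1 and Vwf. Peak distances run from summit to locus edge, and overlap means at least 1 bp. Genes that the peak lists name were matched to RefSeq by symbol, or else by a synonym that 1 gene alone has. Scripts used Python 3.11.15 and were tested on simulated data. The 4 genes and all lists were chosen with earlier results of these data known. The text names the 4 genes, every called gene of the wider list (1 gene of that list is not reported here and enters no count of it), the 3 genes nearest in level to each of the 4, and markers of other cell types; Xist, the muscle and other sums and the neighbouring genes describe the tables. Alternatives were stricter q, minimum level, minimum fold change, pseudocounts of 0.1 and 1, peak windows and list makeup.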

Additional observations from a re-analysis of the deposited data

How the results depend on the processing

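With q of at most 0.01, 1 of the 4 genes (Tubb1) was called in liver in place of 3, 0 in place of 1 in K1-NanER, and 3 in place of 7 genes of the wider list in K1-NanER (Jak2, Nfe2 and Vcl). Adding a minimum of 1 FPKM or a log2 fold change of at least 1 kept each of these counts within 1.5 times. These 2 filters had little room to change them. Every liver row already met that fold change, and the smallest called changes in K1-NanER were -0.93 and 0.95. The genes counted also stood above 1 FPKM in the higher group. Vwf, the only 1 of the 4 genes with a 4sU row, passes in K1-ER at an unadjusted p under 0.05. By the authors' q it does not pass there. The other genes of the 4 could not be counted. Without transcription factors, signalling genes and enzymes, a choice made after seeing the data, 5 genes of the wider list were called in K1-NanER and 4 in K1-ER, in place of 7 each. Counting any peak within 100 kb in place of peaks assigned to the gene gave 3 Nan-KLF1 and 5 KLF1 peaks in place of 0, with 3 overlaps, also when at least 50% of the shorter peak had to be shared. Pseudocounts of 0.1 and 1 can change the size of a fold change but not its direction. With them the log2 fold change of Vwf in K1-NanER was -1.33 and -1.04. For Gp1bb in liver it was 1.34 and 1.21. No paired analysis was possible because the tables hold 1 value per group, and leaving out single replicates was not run for the same reason. The missing depth and spread limit all values here.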

Other observations

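The genes next to the members in the liver table, looked up after the values were seen, did not all go the same way. Atp5e, a subunit gene of the mitochondrial ATP synthase, lies 2.69 kb beyond Tubb1 on chromosome 2 and was at 1166 FPKM in Nan/+ and 342 FPKM in wild type, a log2 fold change of 1.77, by the authors' deposited table, while Tubb1 fell. Cxcl1, a CXC chemokine like Pf4, lies 118 kb from it on chromosome 5 and was at 1.58 FPKM in Nan/+ and 0.33 FPKM in wild type, a log2 fold change of 2.26, by the authors' deposited table. For Gp1bb the nearest listed gene was Dgcr6, 549 kb away, at 26.04 FPKM in Nan/+ and 11.38 FPKM in wild type by the authors' deposited table. In the 4sU table the nearest listed gene to Vwf was Lpar5, a receptor for lysophosphatidic acid 470 kb away, at 9.54 FPKM (K1-NanER), 13.7 FPKM (K1-ER) and 40.9 FPKM (K1) by the authors' deposited table, and it fell in both lines.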
